A study of Homo sapiens with 14 samples.

Results

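The MAF proteins are basic leucine zipper (bZIP) transcription factors, and mRNA of 5 genes of the family, MAF, MAFA, MAFF, MAFG and MAFK, was followed in 22Rv1 cells, a long-established line of human prostate carcinoma. They are large and small MAF genes that were listed in every deposited count table, with all 5 found among 57904 features in the knockdown table, 57905 in the dTAG tables and 20243 in the R219S table. They were selected on their read counts and fold changes in these same libraries, so their values are given as a description with no test. The study title places the work in a question about pioneer transcription factors, proteins that bind closed chromatin, and every comparison alters FOXA1, a forkhead pioneer factor of the prostate epithelium.

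Each of the 7 groups held 2 libraries. The shFOXA1 cells received lentivirus for FOXA1 knockdown and the shCtrl cells control lentivirus, and neither is labelled as carrying the fusion gene. The FOXA1_dTAG cells carry FOXA1 fused to a degradation tag, which a small molecule uses to send the protein to the proteasome, and were sampled at 0 h, 1 h and 24 h. The R219S cells and their WT cells are in the same FOXA1_dTAG background, and the labels do not say which of them received degrader or vehicle. The labels name no vehicle group at 24 h, and do not say whether a line is a single clone or whether replicates were separate cultures, so errors and p-values here cover no more than the scatter among libraries. The titles of the shCtrl libraries name 22Rv2, while the cell line field says 22Rv1.

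Libraries held 21.6 M to 38.5 M counts. All 10 luminal prostate markers had counts in every library, with a summed level of 2694 to 8781 counts-per-million (CPM, with the library total as divisor). Summed leukocyte markers ran from 0.997 to 2.33 CPM and endothelial markers from 0 to 0.499 CPM. The endothelial sum covers 3 of the 4 markers listed, because PECAM1 was not matched. FOXA1 mRNA itself was 297 and 301 CPM in shFOXA1 cells, against 406 and 437 CPM in shCtrl cells. R219S cells had 699 and 678 CPM of it, against 1021 and 1041 CPM in WT cells. It was 169 and 166 CPM at 0 h, 168 and 166 CPM at 1 h and 207 and 199 CPM at 24 h, where the tag acts on the protein and mRNA does not report its loss. In these bulk samples, fewer cells making a transcript and less transcript per cell cannot be told apart.

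The family has 2 classes. The large MAF proteins (MAF, also called c-MAF, MAFA and NRL among them) carry an activation domain and can switch on genes by themselves. The small MAF proteins (MAFF, MAFG and MAFK) lack one, so their pairs with each other repress, and they work mostly as the DNA-binding partners of cap'n'collar (CNC) factors such as NRF2 and of the BACH repressors. NRF2 with a small MAF protein binds antioxidant response elements and drives genes of glutathione and NADPH metabolism, and BACH1 with a small MAF protein blocks the same sites.

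**Figure D1:**
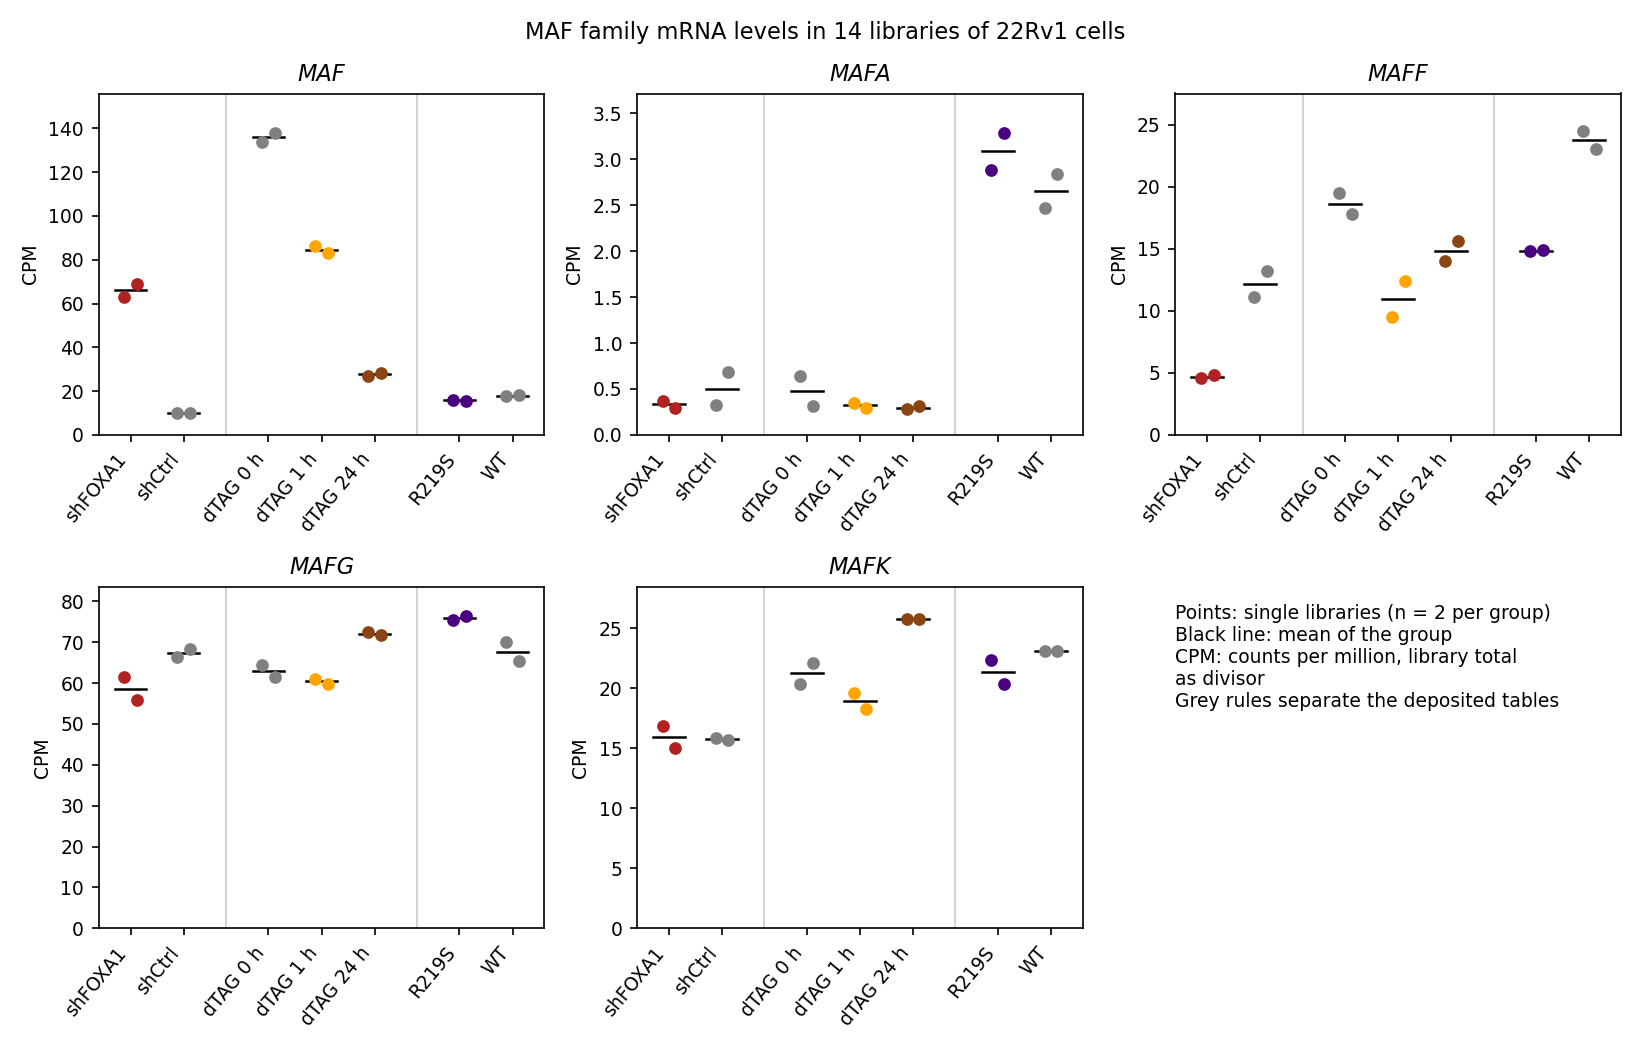
Levels of the 5 MAF family genes in all 14 libraries, in CPM on linear axes that start at 0. Each point is a library, each black line the mean of 2 libraries, and grey rules separate the tables. MAF was at 63.2 and 68.9 CPM in shFOXA1 cells, against 9.89 and 10.1 CPM in shCtrl cells, and at 134 and 138 CPM at 0 h of the dTAG series.

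MAF (ENSG00000178573, chromosome 16), the large MAF protein known for its part in lens, T cell and myeloma biology, had the widest spread of the 5. Its level was 63.2 and 68.9 CPM in shFOXA1 cells, against 9.89 and 10.1 CPM in shCtrl cells. The groups did not overlap, and the shFOXA1 mean of 66.1 ± 4.09 CPM was 6.6 times the shCtrl mean of 10.0 ± 0.167 CPM (SD, n = 2 each), a log2 fold change of 2.75 ± 0.09 (SE, edgeR). In the dTAG series MAF stood at 134 and 138 CPM at 0 h, 86.3 and 82.9 CPM at 1 h, and 27.1 and 28.4 CPM at 24 h. No library of one time overlapped those of another, and the level was lower at each later time. The log2 fold change was -0.69 ± 0.04 at 1 h against 0 h, -2.33 ± 0.05 at 24 h against 0 h and -1.65 ± 0.05 at 24 h against 1 h. The 1 h and 24 h values share the 0 h libraries. R219S cells had 16.1 and 15.7 CPM, against 17.8 and 18.1 CPM in WT cells, a small difference of -0.16 ± 0.09 on the log2 scale.

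MAF was thus higher with the hairpin and lower in the dTAG series after 0 h. The control groups themselves stood far apart. The 0 h mean of 136 CPM was 13.6 times the shCtrl mean and 7.57 times the WT mean of 17.9 CPM, and the WT mean was 1.79 times the shCtrl mean. On a divisor restricted to genes shared by all tables these ratios were 13.7, 7.91 and 1.74. From high to low the order was 0 h, 1 h, shFOXA1, 24 h, WT, R219S and shCtrl, and no neighbours in it overlapped. MAF at 24 h was still above the level in WT, R219S and shCtrl cells. These gaps between tables cannot be told apart from differences in how each set of libraries was made.

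FOS and FOSB, like MAF, were higher at 0 h than at 1 h and 24 h, though other FOS and JUN genes differed from this. FOS, a bZIP partner of JUN in the AP-1 factor, was at 412 and 391 CPM at 0 h, 8.78 and 8.11 CPM at 1 h, and 9.6 and 8.5 CPM at 24 h. Its close relative FOSB was at 376 and 375 CPM, 3.51 and 3.26 CPM, and 3.08 and 3.35 CPM at the same times. Both fell at 1 h, with log2 fold changes of -5.58 ± 0.05 for FOS and -6.80 ± 0.05 for FOSB (edgeR quasi-likelihood test, adjusted p = 2.56e-84 and 4.39e-89). In the other control groups FOS was at 67.7 and 62.9 CPM (shCtrl) and at 26.3 and 26.5 CPM (WT), so the 0 h libraries were high in both MAF and FOS. At 24 h against 1 h, where MAF had a log2 fold change of -1.65, FOS and FOSB did not pass (0.06 ± 0.08 and -0.11 ± 0.12, edgeR adjusted p = 0.608 and 0.533). Of 7 FOS and JUN genes, 1 rose and 3 fell at 1 h, with a median of -0.32, beside 10.7% of all genes called higher and 9.12% lower. FOSL2 rose by 0.30 ± 0.04 and JUNB fell by 0.32 ± 0.04 (edgeR adjusted p = 1.97e-08 and 1.83e-11), and JUN, JUND and FOSL1 did not pass (-0.06 ± 0.03, 0.10 ± 0.05 and -0.61 ± 0.36, edgeR adjusted p = 0.135, 0.123 and 0.25). At 24 h against 0 h, 1 rose and 5 fell, with a median of -0.41, beside 22.1% of all genes called higher and 24.8% lower. With the hairpin, JUN rose by 0.34 ± 0.08 and JUNB fell by 0.31 ± 0.06 (edgeR adjusted p = 0.0142 and 0.00388), both lost without shCtrl replicate 1 (edgeR adjusted p = 0.0951 and 0.0626), and the list median was -0.31, beside 11.3% of all genes called higher and 12.3% lower. The part of these genes in the MAF values was not tested.

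In RefSeq (GRCh38.p14), the windows from 250 bases before to 50 bases after the start of MAF and of MAFF each hold the cyclic AMP response element TGACGTCA, shown in capitals. These windows are shown because MAF and MAFF were the members that were lower at both 1 h and 24 h with no overlap with 0 h. That choice rests on values that also selected the genes, and on 2 libraries per group, so nothing is read from it. Of all genes, 9.12% were called lower at 1 h and 24.8% at 24 h, and the share without overlap was not counted. Windows of MAFA, MAFG and MAFK are not given here, so the element cannot be said to set MAF and MAFF apart. FOS is a textbook target of the factors that bind this element. Whether such factors have a part in the MAF or MAFF values was not tested. The MAF window is chr16:79600688-79600987 (minus strand) and the MAFF window chr22:38201744-38202043 (plus strand), both 5′ to 3′ along the gene.
MAF: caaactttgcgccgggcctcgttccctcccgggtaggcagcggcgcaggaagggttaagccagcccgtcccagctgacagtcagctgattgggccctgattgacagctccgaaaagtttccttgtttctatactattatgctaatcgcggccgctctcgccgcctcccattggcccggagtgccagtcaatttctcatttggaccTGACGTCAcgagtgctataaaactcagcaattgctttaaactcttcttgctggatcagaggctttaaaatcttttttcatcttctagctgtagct
MAFF: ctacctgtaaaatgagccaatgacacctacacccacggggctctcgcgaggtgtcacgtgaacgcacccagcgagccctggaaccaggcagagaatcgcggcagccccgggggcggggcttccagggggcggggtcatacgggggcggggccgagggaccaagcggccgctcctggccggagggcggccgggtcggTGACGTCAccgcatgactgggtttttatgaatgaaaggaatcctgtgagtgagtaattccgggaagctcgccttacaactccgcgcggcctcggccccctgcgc
The element begins 45 bases before the start of MAF and 54 bases before the start of MAFF. It was found in 649 of 35116 RefSeq promoter windows, 1.85%, searched on both strands. The FOXA core motifs TGTTTAC and TGTTTGC, found in 3.42% and 3.89% of windows, and the AP-1 motif TGACTCA, in 4.95%, were in neither window, which says only that these letters are absent there. The core of the antioxidant response element, TGACNNNGC, which 13.3% of windows hold, was found in the MAFF window 122 bases before the start, and the core of the MAF recognition element, TGCTGA, which 17.3% hold, in the MAF window 22 bases before the start, both on the opposite strand. MAFF has a second RefSeq start with none of these 6 motifs. A match is a description of the letters and not evidence of a bound site.

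Next to MAF on chromosome 16 lies MAFTRR, a noncoding RNA reported in human T cells to hold MAF down. Its counts were low. MAFTRR rose with the hairpin, with 58 and 41 counts in shFOXA1 cells, against 28 and 12 in shCtrl cells (log2 fold change 1.36 ± 0.41, edgeR adjusted p = 0.0324). That call was lost with DESeq2 (adjusted p = 0.0683) and without shCtrl replicate 2 (0.84 on the log2 scale, edgeR adjusted p = 0.255). In the dTAG series MAFTRR had 53 and 48 counts at 0 h, 65 and 31 at 1 h, and 12 and 15 at 24 h. It fell at 24 h against 0 h by 1.82 ± 0.37 on the log2 scale (edgeR adjusted p = 0.00014), and its 1 h difference of -0.04 ± 0.29 did not pass (adjusted p = 0.946), with 1 h libraries on both sides of those at 0 h. At 1 h MAF was already lower in both libraries.

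LINC01229, whose annotated start overlaps that of MAFTRR on the opposite strand, had 6 to 29 counts per library in the knockdown and dTAG tables. At 24 h it had 6 and 8 counts, against 28 and 16 at 0 h, and fell by 1.56 ± 0.54 on the log2 scale (edgeR adjusted p = 0.0184), a call lost with DESeq2 (adjusted p = 0.0992). Without dTAG 0 h replicate 1 the change was -1.09 (edgeR adjusted p = 0.32), and without 24 h replicate 1 or 2 it was -1.38 or -1.77 (edgeR adjusted p = 0.129 or 0.0605). In shFOXA1 cells it had 21 and 18 counts, against 17 and 7 in shCtrl cells, and did not pass (0.75 ± 0.51, edgeR adjusted p = 0.328). The strand setting of the counting is not stated, so reads of the 2 transcripts may be shared. Neither transcript was analysed in the R219S table.

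**Figure D2:**
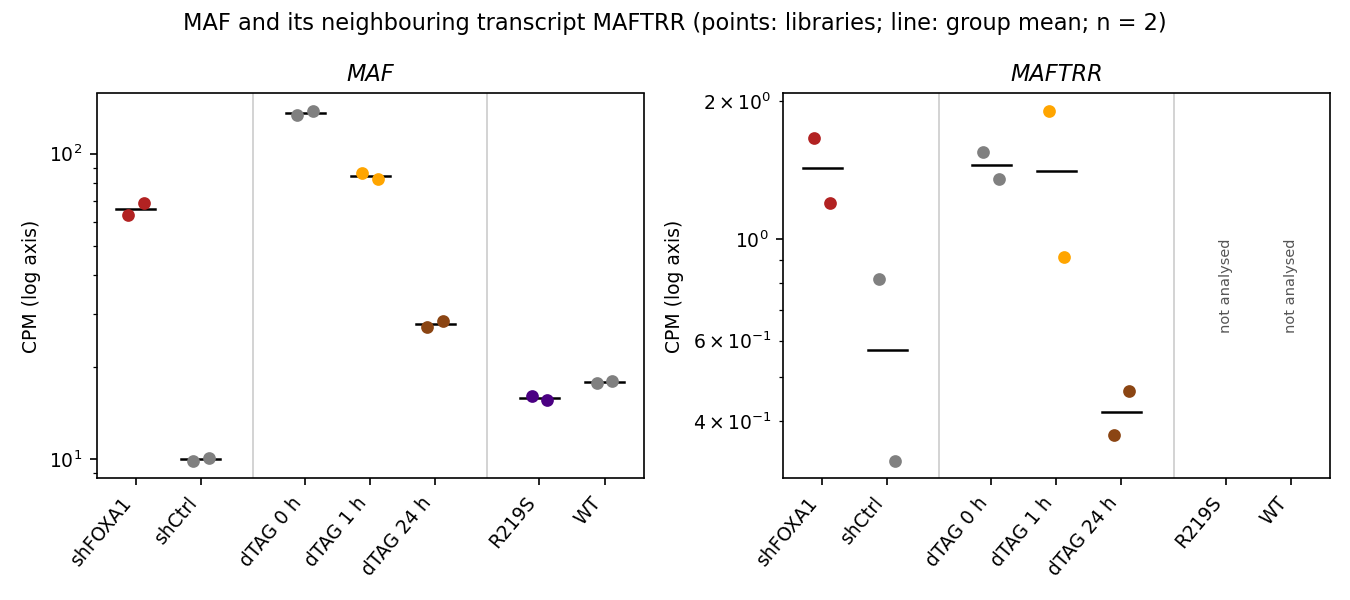
Levels of MAF and MAFTRR in CPM on log axes, each panel with its own range. Points are libraries and lines the means of 2 libraries. Both were higher in shFOXA1 than in shCtrl cells and lower at 24 h than at 0 h, and MAFTRR was not analysed in the R219S table.

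NRL, the large MAF protein of rod photoreceptors, had 18 to 49 counts per library, was not used to choose the family genes, and passed in none of the 5 comparisons, with log2 fold changes from -0.55 ± 0.35 (24 h against 1 h, edgeR adjusted p = 0.215) to 0.65 ± 0.36 (1 h against 0 h, edgeR adjusted p = 0.216).

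MAFA (ENSG00000182759, chromosome 8), the large MAF protein of pancreatic beta cells, was near the limit of these libraries, with 9 to 25 counts in each library of the knockdown and dTAG tables. Its counts were 13 and 10 in shFOXA1 cells, against 11 and 25 in shCtrl cells. They were 22 and 11 at 0 h, 12 and 10 at 1 h, and 9 and 10 at 24 h. The libraries overlapped in the knockdown and at 1 h, and in CPM also at 24 h, at 0.280 and 0.310 CPM, against 0.642 and 0.309 CPM at 0 h. The log2 fold changes of -0.57 ± 0.52 (knockdown), -0.55 ± 0.54 (1 h) and -0.72 ± 0.55 (24 h against 0 h) had errors about as large as themselves. In the R219S table MAFA was at 62 and 85 counts (2.88 and 3.29 CPM) in R219S cells, against 95 and 75 counts (2.47 and 2.84 CPM) in WT cells, and the difference was 0.25 ± 0.20. The WT mean of 2.65 CPM was 5.28 times the shCtrl mean of 0.503 CPM and the 0 h mean was 0.475 CPM, so the gap between tables was larger than any gap within one. The antisense transcript MAFA-AS1 had 0 to 6 counts per library in the knockdown and dTAG tables and was not tested.

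MAFF (ENSG00000185022, chromosome 22), the small MAF gene known as the stress- and cytokine-inducible one, was lower in all 4 groups with altered FOXA1 than in their controls. It was at 4.55 and 4.84 CPM in shFOXA1 cells, against 11.1 and 13.2 CPM in shCtrl cells, a log2 fold change of -1.34 ± 0.15. The shFOXA1 mean of 4.7 ± 0.202 CPM was 38.7% of the shCtrl mean of 12.1 ± 1.49 CPM (SD, n = 2 each). In the dTAG series MAFF was at 19.5 and 17.8 CPM at 0 h, 9.54 and 12.4 CPM at 1 h, and 14.0 and 15.6 CPM at 24 h. It was lowest at 1 h (-0.77 ± 0.09 against 0 h) and higher again at 24 h (0.39 ± 0.10 against 1 h), though both 24 h libraries stayed below those of 0 h (-0.38 ± 0.09). The 1 h and 24 h groups share the 0 h libraries as their control. R219S cells had 14.8 and 14.9 CPM, against 24.5 and 23.1 CPM in WT cells, a difference of -0.67 ± 0.08. From high to low its order was WT, 0 h, R219S, 24 h, shCtrl, 1 h and shFOXA1. R219S and 24 h overlapped, as did shCtrl and 1 h. The R219S and 24 h levels were thus above those of unaltered shCtrl cells, whose mean the 0 h mean exceeded 1.54 times and the WT mean 1.96 times.

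MAFG (ENSG00000197063, chromosome 17), the broadly expressed small MAF, varied least. It was at 61.4 and 55.8 CPM in shFOXA1 cells, against 66.3 and 68.3 CPM in shCtrl cells (-0.17 ± 0.07). It was at 64.5 and 61.6 CPM at 0 h, 61.1 and 59.8 CPM at 1 h (-0.06 ± 0.05), and 72.4 and 71.8 CPM at 24 h (0.15 ± 0.05 against 0 h, 0.21 ± 0.05 against 1 h). R219S cells had 75.5 and 76.3 CPM, against 70.0 and 65.3 CPM in WT cells (0.18 ± 0.05). In each of these pairs the libraries did not overlap, but the differences were small. The 3 control groups had means of 63.0 (0 h), 67.3 (shCtrl) and 67.6 (WT) CPM. From high to low the order was R219S, 24 h, WT, shCtrl, 0 h, 1 h and shFOXA1, where WT overlapped shCtrl and 1 h overlapped shFOXA1.

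The divergent transcript beside MAFG, MAFG-DT (also named MILIP), had 137 to 285 counts per library in the knockdown and dTAG tables. It had 138 and 164 counts at 0 h, 187 and 250 at 1 h, and 137 and 152 at 24 h. MAFG-DT rose at 1 h (0.56 ± 0.15, edgeR adjusted p = 0.00357), a call lost with DESeq2 (adjusted p = 0.0604), without 0 h replicate 1 (0.47, edgeR adjusted p = 0.052) and without 1 h replicate 2 (0.34, edgeR adjusted p = 0.252). At 24 h against 1 h it fell by 0.55 ± 0.15 (edgeR adjusted p = 0.00235), also lost without 1 h replicate 2 (-0.33, edgeR adjusted p = 0.173). MAFG itself differed little at 1 h (-0.06 ± 0.05). With the hairpin MAFG-DT had 273 and 220 counts, against 285 and 281 in shCtrl cells, and did not pass (-0.14 ± 0.15, edgeR adjusted p = 0.546).

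MAFK (ENSG00000198517, chromosome 7), the small MAF best known from the erythroid factor NF-E2, was at 16.9 and 15.0 CPM in shFOXA1 cells, against 15.9 and 15.7 CPM in shCtrl cells, and these overlapped (0.04 ± 0.11). In the dTAG series it was at 20.4 and 22.1 CPM at 0 h, 19.6 and 18.3 CPM at 1 h, and 25.8 and 25.8 CPM at 24 h. It was highest at 24 h, by 0.24 ± 0.08 against 0 h and 0.41 ± 0.08 against 1 h, and the 1 h libraries lay just below those of 0 h (-0.17 ± 0.08). R219S cells had 22.4 and 20.4 CPM, against 23.1 and 23.1 CPM in WT cells, with no overlap but a small difference (-0.10 ± 0.08). From high to low the order was 24 h, WT, R219S, 0 h, 1 h, shFOXA1 and shCtrl, with R219S overlapping 0 h and shFOXA1 overlapping shCtrl.

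**Figure D3:**
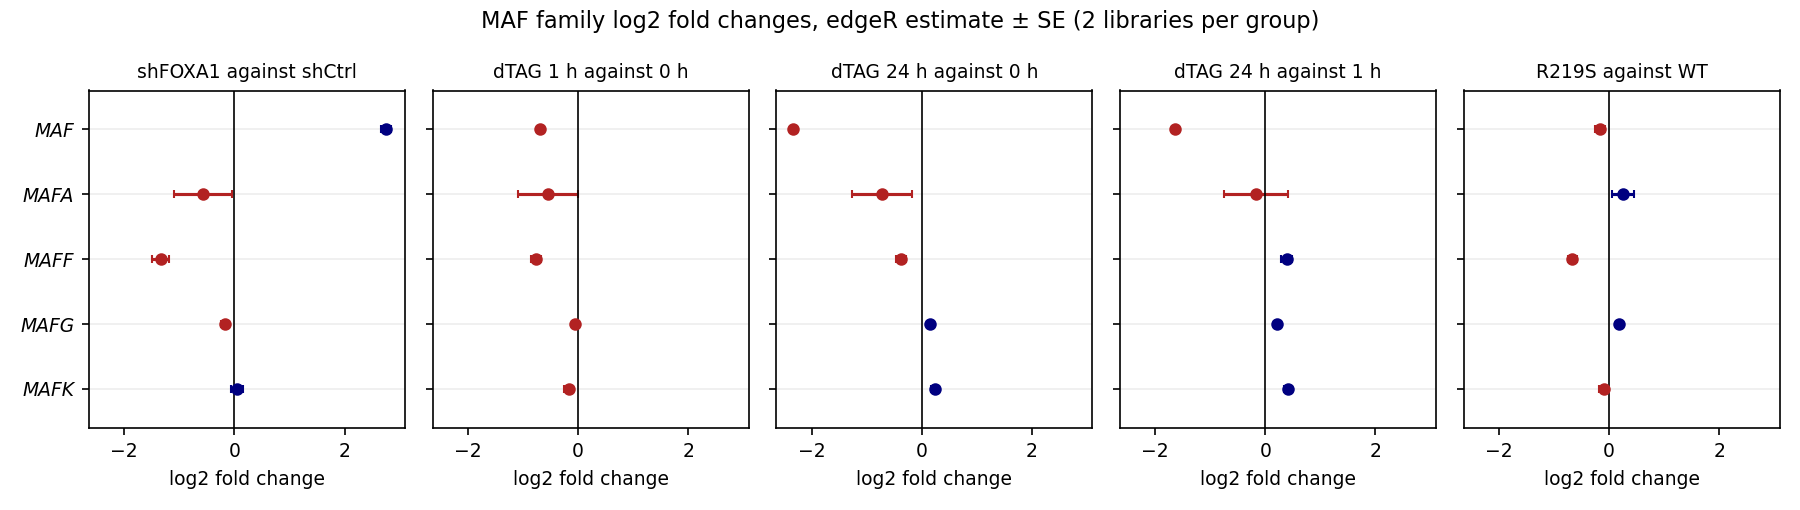
Log2 fold changes of the 5 MAF family genes in 5 comparisons, on 1 shared axis. Points are edgeR estimates and bars their SE, from 2 libraries per group, with blue above 0 and red below. MAF stood at 2.75 with the hairpin and at -2.33 at 24 h of the dTAG series, and MAFF was below 0 in all 4 comparisons with a control group. The 1 h and 24 h comparisons share the 0 h libraries.

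All 5 genes passed the filter on low counts in every comparison. At an adjusted p under 0.05 over all genes tested, 2 of the 5 were called with the hairpin (MAF and MAFF), where 23.6% of 19128 genes were called, 4506 in all (1713 without shCtrl replicate 2 and 6793 without shFOXA1 replicate 1). At 1 h against 0 h, 2 were called (MAF and MAFF), beside 19.8% of 19397 genes. At 24 h against 0 h, 4 were called (all but MAFA), beside 46.9% of 19607 genes, and at 24 h against 1 h the same 4, beside 45.7% of 20027 genes. In R219S against WT, 2 were called (MAFF and MAFG), beside 62.1% of 13990 genes. These calls were part of how the genes were chosen, so nothing is read from their number.

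Because the small MAF proteins compete for the same partners, their makeup was also set out per kilobase of exon. MAFG was the most abundant small MAF mRNA in every library, at 57.4% to 71.9% of the sum. MAFF made up 4.96% and 5.78% of small MAF mRNA in shFOXA1 cells, against 10.8% and 12.4% in shCtrl cells. In the dTAG series its share was 17.1% and 15.9% at 0 h, 9.54% and 12.4% at 1 h, and 11.2% and 12.4% at 24 h. It was 11.9% and 12.1% in R219S cells, against 19.0% and 18.8% in WT cells. The MAFF share was thus lower in each altered group than in its control, with no overlap. Here too the 1 h and 24 h groups share the 0 h libraries. The sum itself was 16.4 and 14.9 CPM per kb in shFOXA1 cells, against 18.2 and 19.0 in shCtrl cells. It was 20.4 and 19.9 CPM per kb at 0 h, 17.8 and 17.8 at 1 h, and 22.1 and 22.3 at 24 h. R219S cells had 22.1 and 21.8 CPM per kb, against 23.0 and 21.8 in WT cells, so the sum there overlapped.

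**Figure D4:**
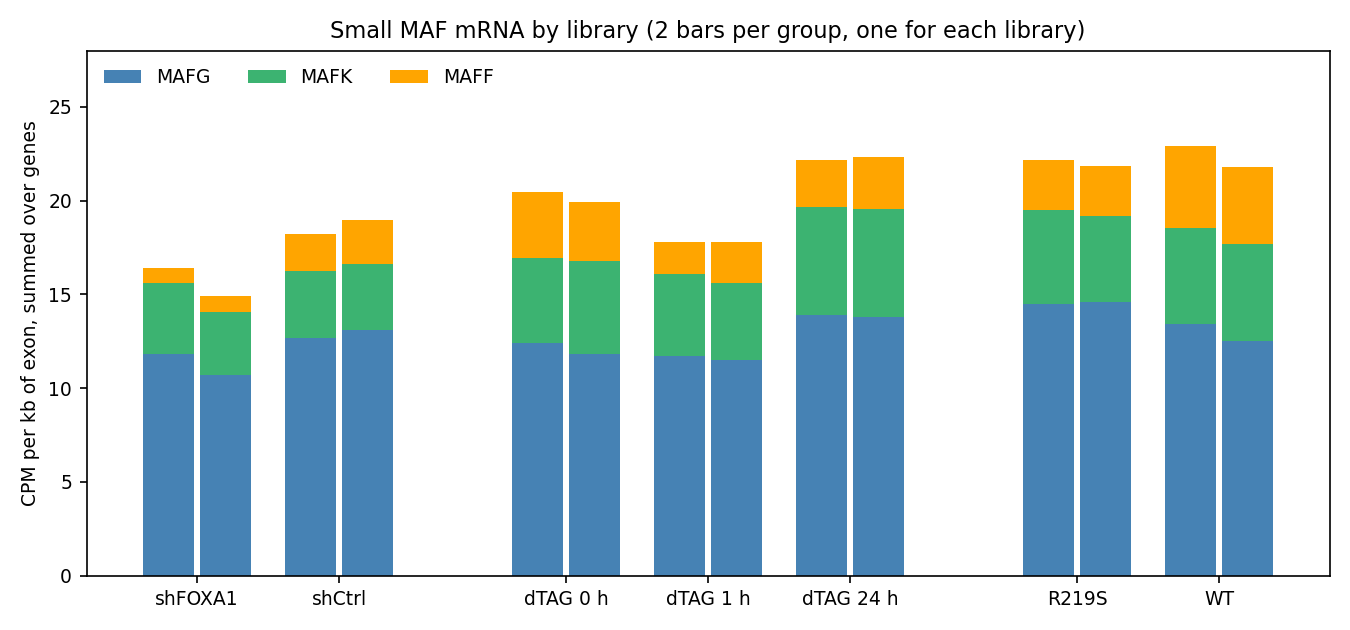
Small MAF mRNA in each library as stacked bars, in CPM per kb of exon from 0, with MAFG at the bottom, MAFK in the middle and MAFF on top. The MAFF segment was thinner in shFOXA1 than in shCtrl cells (4.96% and 5.78% against 10.8% and 12.4% of the bar) and in R219S than in WT cells (11.9% and 12.1% against 19.0% and 18.8%).

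The same scale puts large and small MAF genes side by side. At 0 h, MAF averaged 19.5 CPM per kb, above MAFG (12.1), MAFK (4.77), MAFF (3.32), NRL (0.23) and MAFA (0.19). In shCtrl cells MAFG led at 12.9 CPM per kb, followed by MAFK (3.55), MAFF (2.16) and MAF (1.43). In WT cells MAFG again led at 13.0 CPM per kb, with MAFK at 5.18, MAFF at 4.24 and MAF at 2.57. MAF thus ranked above MAFG, MAFK and MAFF at 0 h of the dTAG series and below all 3 in shCtrl and WT cells. The WT cells are also in the FOXA1_dTAG background.

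Of the 7 CNC, BACH and KEAP1 genes, 6 could be tested, and NFE2, the erythroid partner, had 0 to 14 counts and was not tested. With the hairpin 0 rose and 1 fell, with a median log2 fold change of -0.11 over the 6, beside 11.3% of all genes called higher and 12.3% lower. NFE2L1, a CNC factor that controls proteasome genes, was at 157 and 163 CPM in shFOXA1 cells, against 187 and 187 CPM in shCtrl cells. It fell by 0.20 ± 0.06 (edgeR adjusted p = 0.0292), a call lost without shCtrl replicate 1 or 2 (edgeR adjusted p = 0.214 and 0.264). NFE2L2, which encodes NRF2, had 43.1 and 45.6 CPM, against 45.2 and 51.5 CPM in shCtrl cells, and did not pass (-0.10 ± 0.08, edgeR adjusted p = 0.437).

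At 1 h, 1 of the 6 fell and 0 rose, with a median of 0.00, beside 9.12% of all genes called lower and 10.7% higher. BACH1, the repressor that competes with NRF2 for small MAF proteins, was at 20.4 and 20.7 CPM at 1 h, against 25.3 and 26.3 CPM at 0 h, and fell by 0.33 ± 0.07 (edgeR adjusted p = 0.000258). At 24 h, 4 rose and 1 fell, with a median of 0.23, where 22.1% of all genes were called higher and 24.8% lower. BACH2, the B cell repressor of the same pair, rose most, with 112 and 131 counts at 24 h, against 41 and 36 at 0 h (1.73 ± 0.23, edgeR adjusted p = 1.27e-07). NFE2L3 rose by 0.48 ± 0.09, NFE2L1 by 0.26 ± 0.04 and NFE2L2 by 0.20 ± 0.05 (edgeR adjusted p = 5.13e-05, 1.14e-06 and 0.00138). BACH1 fell by 0.21 ± 0.07 (edgeR adjusted p = 0.0202), a call lost with DESeq2 (adjusted p = 0.105), without 0 h replicate 2 (edgeR adjusted p = 0.128) and without 24 h replicate 1 (0.143). KEAP1, which targets NRF2 for degradation, did not pass (0.08 ± 0.04, edgeR adjusted p = 0.16). Against 1 h, the 24 h libraries were higher for 4 of the 6 and lower for 0, beside 21.2% and 24.5% of all genes, with BACH2 again the largest at 2.13 ± 0.25 (edgeR adjusted p = 7.24e-10).

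In R219S cells 3 of the 6 rose and 1 fell, with a median of 0.29, beside 30.5% of all genes called higher and 31.6% lower. BACH1 was at 14.6 and 15.0 CPM in R219S cells, against 23.0 and 21.8 CPM in WT cells, and fell by 0.58 ± 0.08 (edgeR adjusted p = 2.65e-11). NFE2L1 rose by 0.39 ± 0.04, NFE2L2 by 0.31 ± 0.06 and KEAP1 by 0.27 ± 0.05 (edgeR adjusted p = 2.11e-20, 3.85e-07 and 1.84e-07). BACH2 had 14 and 13 counts in R219S cells, against 16 and 7 in WT cells, and did not pass (0.70 ± 0.49, edgeR adjusted p = 0.208).

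Markers listed for fibroblasts also stood apart in the R219S table. The sum of the 7 was 505 and 517 CPM in R219S cells, against 225 and 217 CPM in WT cells, and 19.2 to 30.8 CPM in the other groups. Most of it was COL3A1, a fibrillar collagen, at 275 and 280 CPM in R219S cells, against 7.05 and 5.91 CPM in WT cells, and LUM, a proteoglycan, at 179 and 185 CPM, against 171 and 165 CPM in WT cells. DCN was at 37.8 and 38.4 CPM, against 21.3 and 20.1 CPM in WT cells. COL1A1 ran the other way, at 13.5 and 13.5 CPM in R219S cells, against 25.2 and 25.2 CPM in WT cells. COL1A2 had 0 counts in all 4 libraries, and FAP and PDGFRB averaged 0.108 and 0.251 CPM in R219S cells, against 0.115 and 0.501 CPM in WT cells. The part of these transcripts in the R219S values was not tested.

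**Figure D5:**
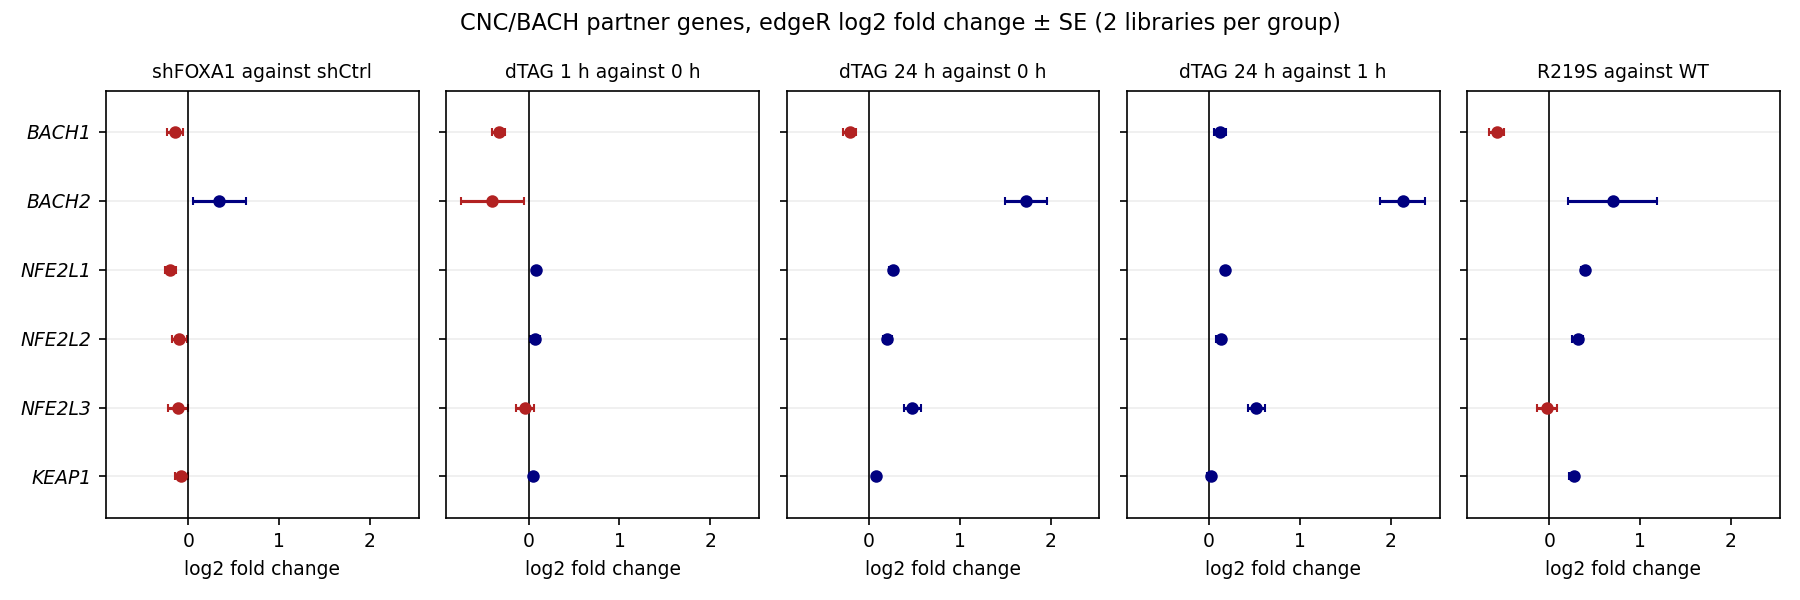
Log2 fold changes of 6 CNC, BACH and KEAP1 genes in 5 comparisons on 1 shared axis. Points are edgeR estimates and bars their SE, from 2 libraries per group, with blue above 0 and red below. BACH2 stood at 1.73 at 24 h against 0 h and BACH1 at -0.58 in R219S against WT.

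The targets of NRF2 with small MAF proteins, a list of 28 genes, moved in both directions in every comparison. With the hairpin, 4 rose and 9 fell of 27 tested, with a median log2 fold change of -0.13, beside 11.3% of all genes called higher and 12.3% lower. Those that fell include both subunits of glutamate-cysteine ligase, which catalyses the first step of glutathione synthesis. GCLM, the modifier subunit, was at 25.1 and 22.0 CPM in shFOXA1 cells, against 60.9 and 67.8 CPM in shCtrl cells (-1.43 ± 0.09, edgeR adjusted p = 2.78e-06). GCLC, the catalytic subunit, was at 46.1 and 42.4 CPM, against 74.5 and 81.7 CPM in shCtrl cells (-0.79 ± 0.07, edgeR adjusted p = 3.38e-05). SRXN1, which repairs oxidised peroxiredoxins, fell to 32 and 36 counts in shFOXA1 cells, against 116 and 207 in shCtrl cells (-2.17 ± 0.29, edgeR adjusted p = 0.000365). SLC7A11, the cystine importer, was at 25.7 and 16.3 CPM, against 74.1 and 82.9 CPM in shCtrl cells, and fell by 1.88 ± 0.25 (edgeR adjusted p = 0.0217). The SLC7A11 call was lost without shCtrl replicate 1 or 2 (edgeR adjusted p = 0.163 and 0.189). Leaving out shCtrl replicate 1 or 2 left 7 or 5 called list genes, and other single libraries up to 19.

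At 1 h, 4 of 26 tested rose and 3 fell, with a median of 0.01, beside 10.7% of all genes called higher and 9.12% lower. SRXN1 had 109 and 195 counts at 1 h, against 70 and 81 at 0 h, and rose by 1.04 ± 0.21 (edgeR adjusted p = 0.000103), a call lost without 1 h replicate 2 (0.56, edgeR adjusted p = 0.13). SLC7A11 fell by 0.34 ± 0.07 (edgeR adjusted p = 0.000129), at 21.4 and 21.7 CPM, against 26.2 and 27.9 CPM at 0 h. OSGIN1, a growth inhibitor induced by oxidative stress, fell by 0.51 ± 0.13 (edgeR adjusted p = 0.00333), and was lost with DESeq2 (adjusted p = 0.0618), without 0 h replicate 2 (-0.38, edgeR adjusted p = 0.0895) and without 1 h replicate 2 (-0.27, edgeR adjusted p = 0.254). FTH1, the ferritin heavy chain, rose by 0.39 ± 0.07 (edgeR adjusted p = 0.0349), though reads may be shared with its processed pseudogenes. Without 1 h replicate 2, 4 list genes were called.

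At 24 h, 9 of 26 tested rose and 13 fell, with a median of -0.10, beside 22.1% of all genes called higher and 24.8% lower. SLC40A1, the iron exporter ferroportin, was at 23.4 and 23.2 CPM at 24 h, against 9.89 and 8.67 CPM at 0 h (1.29 ± 0.09, edgeR adjusted p = 2.76e-13). SLC7A11 fell to 13.1 and 12.4 CPM at 24 h (-1.13 ± 0.08 against 0 h, edgeR adjusted p = 4.86e-13). FTH1 rose by 1.04 ± 0.12 (edgeR adjusted p = 0.00766), at 952 and 818 CPM, against 390 and 444 CPM at 0 h. SRXN1 had 154 and 329 counts and rose by 1.75 ± 0.44 (edgeR adjusted p = 0.0293), a call lost without 0 h replicate 1 or 2 (1.67 and 1.83, edgeR adjusted p = 0.447 and 0.298). Against 1 h, 7 of 26 rose and 12 fell, with a median of 0.02, beside 21.2% of all genes called higher and 24.5% lower, and PIR, an iron-binding nuclear protein, fell by 0.76 ± 0.10 (edgeR adjusted p = 1.69e-08).

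In R219S cells, 14 of 26 rose and 4 fell, with a median of 0.19, beside 30.5% of all genes called higher and 31.6% lower. PIR was at 95.8 and 96.9 CPM in R219S cells, against 20.1 and 21.8 CPM in WT cells (2.22 ± 0.06, edgeR adjusted p = 2.11e-172). FTH1 was at 597 and 609 CPM, against 215 and 206 CPM in WT cells (1.53 ± 0.04, edgeR adjusted p = 2.85e-176). ABCC3, an efflux pump of glucuronide conjugates, had 47 and 60 counts, against 22 and 8 in WT cells (2.30 ± 0.33, edgeR adjusted p = 2.52e-11). AKR1C1, a steroid-reducing enzyme with near-identical paralogs, had 20 and 17 counts, against 11 and 6 in WT cells. It rose by 1.58 ± 0.48 (edgeR adjusted p = 0.00248), a call lost without R219S replicate 1 (1.33, edgeR adjusted p = 0.0763). GCLC was among the 4 that fell, by 0.61 ± 0.05 (edgeR adjusted p = 1.63e-31).

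Of 14 genes known in other tissues as targets of large MAF proteins, most had too few counts here, and 4 to 6 could be tested in a comparison. With the hairpin, where MAF was higher, 3 of 6 rose and 1 fell, with a median of 0.48, beside 11.3% of all genes called higher and 12.3% lower. CRYAB, a lens and stress chaperone, had 22 and 41 counts in shFOXA1 cells, against 7 and 4 in shCtrl cells (2.56 ± 0.55, edgeR adjusted p = 0.00532). DEPTOR, an mTOR inhibitor that MAF induces in myeloma, was at 24.1 and 30.4 CPM, against 14.3 and 16.9 CPM in shCtrl cells (0.83 ± 0.13, edgeR adjusted p = 0.00139). NUAK1, a kinase of the AMPK family, rose by 0.48 ± 0.14 (edgeR adjusted p = 0.0305), a call lost with DESeq2 (adjusted p = 0.0825) and without shCtrl replicate 1 or 2 (edgeR adjusted p = 0.218 and 0.158). CCR1, a chemokine receptor, had 8 and 1 counts, against 24 and 24 in shCtrl cells, and fell (-2.32 ± 0.64, edgeR adjusted p = 0.0197). That call was lost without shCtrl replicate 1 or 2 (edgeR adjusted p = 0.0874 and 0.0897) and without shFOXA1 replicate 2 (-1.53, edgeR adjusted p = 0.0781).

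At 24 h, where MAF was lower, 3 of 5 rose and 0 fell, with a median of 0.69, beside 22.1% of all genes called higher and 24.8% lower. CRYAB had 229 and 231 counts at 24 h, against 73 and 90 at 0 h (1.57 ± 0.16, edgeR adjusted p = 9.51e-10). ITGB7, an integrin that MAF induces in myeloma, had 187 and 212 counts, against 131 and 129 at 0 h, and rose by 0.69 ± 0.15 (edgeR adjusted p = 0.000258). It had risen already at 1 h, the 1 call of 6, with 210 and 206 counts (0.71 ± 0.15 against 0 h, edgeR adjusted p = 0.000243, list median 0.18), where 10.7% of all genes were called higher and 9.12% lower. NUAK1 rose by 0.43 ± 0.11 at 24 h (edgeR adjusted p = 0.00183). CRYAB and NUAK1 were called higher both here and with the hairpin, though the NUAK1 call with the hairpin was lost in the alternatives given above. Any part of MAF in the values of these target genes was not tested. DEPTOR at 24 h was at 9.32 and 10.5 CPM, against 9.07 and 9.62 CPM at 0 h, and did not pass (0.04 ± 0.11, edgeR adjusted p = 0.789).

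At 24 h against 1 h, 2 of 6 rose and 1 fell, with a median of 0.30, beside 21.2% of all genes called higher and 24.5% lower. The one that fell was GLP1R, the incretin receptor, with 3 and 1 counts at 24 h, against 13 and 18 at 1 h (-2.84 ± 0.77, edgeR adjusted p = 0.00188), a call lost without 24 h replicate 2 (-2.28, edgeR adjusted p = 0.0527). In R219S cells, where MAF differed little from WT, 1 of 4 rose and 2 fell, with a median of -0.25, beside 30.5% of all genes called higher and 31.6% lower. CRYAB rose by 1.21 ± 0.37 (20 and 39 counts, against 23 and 12 in WT cells, edgeR adjusted p = 0.00214), a call lost with DESeq2 (adjusted p = 0.0561) and without R219S replicate 2 (0.80, edgeR adjusted p = 0.204). NUAK1 and ITGB7 fell, each by 0.63 (SE 0.12 and 0.21, edgeR adjusted p = 4.39e-07 and 0.00437), and the ITGB7 call was lost with DESeq2 (adjusted p = 0.0706) and without R219S replicate 1 (-0.44, edgeR adjusted p = 0.113).

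Over the 14 libraries, the genes whose log2 CPM followed each MAF gene most closely were listed as a description, from 12297 genes compared by Pearson correlation. Each gene was first centred on its mean in each table, so the gaps between tables do not enter these values. The libraries share tables and control groups, so the values mostly reflect the gaps between groups of the same table. VIM (0.959), NAMPT (0.941) and EXTL2 (0.940) were most like MAF. MPZL3 (0.971), NR4A3 (0.957) and USP16 (0.946) were most like MAFF. For MAFG they were USP19 (0.955), CNOT6 (0.954) and ABLIM3 (0.946), and for MAFK they were ZSCAN9, LCOR and NEBL (0.923 each). Within the family, MAF ran against MAFG (-0.791).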

How the data were processed

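RNA sequencing of 14 libraries was taken as deposited, in tables of whole-number read counts per gene that the authors had not normalized. Per the submitters' processing notes STAR, featureCounts and DESeq2 were used with the build hg19; versions, annotation and strand setting are not given in the sources used here. The 0 h counts were identical for 57905 features in both dTAG tables and were used once. Per-sample columns not used numbered 0. The labels define the groups, and their numbers were not taken as pairing (same-numbered libraries deviated together with correlations of -0.016 to 0.0338).

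Each comparison was fitted on all its genes in R 4.3.3 by edgeR 4.0.16, using filterByExpr, TMM factors, estimateDisp, robust glmQLFit and the quasi-likelihood test. The threshold for a call was 0.05 after Benjamini-Hochberg adjustment across the genes of that fit, and adjusted p-values are edgeR's unless DESeq2 (1.42.0) is named. Libraries of 1 h and 24 h were compared in a fit of all 6 dTAG libraries, and the 24 h and knockdown changes by an interaction term over both tables. The fits were tested on simulated data. SEs were derived as the size of the log2 fold change divided by the square root of F. CPM uses the library total, so folds of CPM can differ slightly from fitted ones. Lengths per kilobase are merged exons of GENCODE 29 (GRCh38), not the annotation of the counts. Correlations used log2(CPM + 1), centred for each gene on its mean in each table. Ratios of levels across tables carry no test, because table and cells cannot be told apart. Sequences are from RefSeq, GRCh38.p14, where no MAFK window was used.

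The family genes, the gene lists, the tests and the alternatives were chosen with earlier results of these data known. Named from a list of targets were, at most, the 4 called genes with the largest change in a comparison, and all partner genes and neighbouring transcripts; other NRF2 targets in the interaction test, other FOS and JUN genes, GCLC in R219S cells, DEPTOR at 24 h and the fibroblast markers were named after their values were seen. Alternatives were DESeq2, RLE scaling, no filter, a minimum of 1 CPM in 2 libraries, a replicate block and leaving out each library.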

Additional observations from a re-analysis of the deposited data

Results flagged for a closer look

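The change at 24 h of FOXA1 degradation was set against the change with the FOXA1 hairpin, as 24 h minus 0 h less shFOXA1 minus shCtrl, and genes whose difference passed in edgeR's interaction test are given here on the log2 scale. The 2 designs differ in time, in cells and in how FOXA1 was lowered, and these cannot be told apart. Over all genes tested, 22.7% of 20795 were called.

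MAF and MAFG had opposite directions in every library of the 2 comparisons, and this difference was not tested because their values chose them. The difference was -5.07 for MAF (-2.33 at 24 h, 2.75 with the hairpin) and 0.34 for MAFG (0.15 at 24 h, -0.17 with the hairpin). For MAFF, lower in both designs, the difference was 0.98 (-0.38 at 24 h, -1.34 with the hairpin), likewise a description only.

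Beside MAF, the difference was -3.17 ± 0.55 for MAFTRR (edgeR adjusted p = 0.000216) and -2.30 ± 0.78 for LINC01229 (edgeR adjusted p = 0.0364). The LINC01229 call was lost when any of 5 single libraries was left out, at -1.77 to -2.52 (edgeR adjusted p = 0.0542 to 0.193).

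Of the partner genes, BACH2 differed by 1.40 ± 0.36, NFE2L3 by 0.61 ± 0.14 and NFE2L1 by 0.47 ± 0.07, all toward a higher change at 24 h (edgeR adjusted p = 0.00707, 0.00293 and 3.04e-05). NFE2L2 differed by 0.31 ± 0.10 (edgeR adjusted p = 0.0246), a call lost without shCtrl replicate 2 (0.21) and without each of the 4 dTAG libraries in turn (edgeR adjusted p = 0.0601 to 0.199 over these).

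Over all 20795 genes, the difference was called higher for 1966 and lower for 2746. Of 27 NRF2 and small MAF targets tested, the difference was called higher for 8 and lower for 5. Of those higher, SRXN1 differed by 3.93 ± 0.65 (edgeR adjusted p = 0.00535), lost without shFOXA1 replicate 1 or 2 (3.83 and 4.04, edgeR adjusted p = 0.0916 and 0.0771). GCLM differed by 1.04 ± 0.11, and UGDH, which makes UDP-glucuronic acid, by 0.91 ± 0.07 (edgeR adjusted p = 5.63e-07 and 8.8e-09). NQO1, a quinone reductase, differed by 0.63 ± 0.15, TXNRD1, thioredoxin reductase, by 0.55 ± 0.08 and GCLC by 0.52 ± 0.11 (edgeR adjusted p = 0.00486, 1.39e-05 and 0.00119). GCLM and GCLC fell in both designs, and less at 24 h. Their changes were -0.39 ± 0.07 and -0.29 ± 0.06 at 24 h, against -1.43 ± 0.09 and -0.79 ± 0.07 with the hairpin. UGDH changed by 0.32 ± 0.04 at 24 h and by -0.58 ± 0.06 with the hairpin. SLC40A1 differed by 0.79 ± 0.24 (edgeR adjusted p = 0.0331), lost when any of 5 single libraries was left out (0.64 to 0.88, edgeR adjusted p = 0.0676 to 0.147). FTL, the ferritin light chain, differed by 0.20 ± 0.07 (edgeR adjusted p = 0.0365), also lost when any of 5 single libraries was left out (0.15 to 0.22, edgeR adjusted p = 0.101 to 0.229). Of those lower, TXN, thioredoxin, differed by -0.65 ± 0.08 and EPHX1, an epoxide hydrolase, by -0.40 ± 0.09 (edgeR adjusted p = 4.86e-06 and 0.00302). PGD and TKT, enzymes of the pentose phosphate pathway, differed by -0.38 ± 0.08 and -0.37 ± 0.07 (edgeR adjusted p = 0.00169 and 0.000585). PRDX1, a peroxiredoxin, differed by -0.34 ± 0.10 (edgeR adjusted p = 0.0175), lost without shCtrl replicate 2, 0 h replicate 2 or 24 h replicate 1 (-0.28 to -0.31, edgeR adjusted p = 0.0874 to 0.0894).

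DEPTOR differed by -0.78 ± 0.18 (edgeR adjusted p = 0.00275), and JUN, the AP-1 partner of FOS, by -0.52 ± 0.09 (edgeR adjusted p = 0.000619). FOSB differed by -6.56 ± 0.12 and FOS by -5.46 ± 0.09 (edgeR adjusted p = 1.88e-19 and 1.57e-19).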

How the results depend on the processing

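The family genes kept their direction under every alternative run, except MAFA and, where its libraries overlapped, MAFK. MAF ranged from 2.68 to 2.82 on the log2 scale with the hairpin, from -0.72 to -0.66 at 1 h and from -2.36 to -2.30 at 24 h. MAFF ranged from -1.47 to -1.21, from -0.97 to -0.59 and from -0.46 to -0.31 in the same comparisons, and from -0.72 to -0.62 in R219S cells. MAFK with the hairpin ran from -0.04 to 0.12. MAFA with the hairpin ran from -1.01 to 0.08 and at 1 h from -0.99 to 0.06, turning without shCtrl replicate 2 and without dTAG 0 h replicate 1, and under a minimum of 1 CPM in 2 libraries it could not be fitted in those tables. FTH1 with the hairpin, at 0.01 with all libraries, was -0.34 without shFOXA1 replicate 2 and 0.29 without replicate 1; the cause was not tested.

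With the hairpin, 4506 genes were called, and 1713 to 6793 with a library left out: 2421 and 1713 when the first or the second shCtrl library was left out, and 6793 when shFOXA1 replicate 1 was. At 1 h, 3850 were called, 2044 with DESeq2, and 2232 to 3422 with a library left out (2428 and 2232 without 1 h replicate 1 and 2). Leaving out a library changed the partner genes called with the hairpin from 1 to between 0 and 2, the NRF2 and small MAF targets from 13 to between 5 and 19, and those at 1 h from 7 to between 4 and 8. Where a group was left with 1 library, it was assumed to vary like the others.

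With a replicate block, 0 partner genes were called with the hairpin (NFE2L1, adjusted p = 0.0537), and counts of all genes called were 4412 (hairpin), 3909 (1 h), 9868 (24 h) and 8441 (R219S), all within 1.5 times of those without the block. In the test of the 24 h against the hairpin change, the block ended the calls of LINC01229 (-2.32, adjusted p = 0.0509), SLC40A1 (0.80, 0.0522) and FTL (0.20, 0.0616). The labels do not say that a number marks a shared batch. Of 2388 recomputed log2 fold changes of tested genes, 2177 kept both direction and side of the threshold and 171 moved to its other side.

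Low counts limited the precision for MAFA (9 to 25 per library in the knockdown and dTAG tables), and 2 libraries per group limited every error given.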
